A study of Mus musculus with 8 samples.

Results

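The CHD family (chromodomain helicase DNA-binding proteins) has 9 members in the mouse, encoded by *Chd1* to *Chd9*. They were taken by name, and all 9 were found by Entrez identifier among the 21058 genes of the deposited tables. All 9 also passed the filter on low counts and were therefore among the 17643 genes tested. RNA was sequenced from pachytene spermatocytes, the male germ cells in the long middle stage of the first meiotic prophase, in 4 *Arid1a* WT and 4 *Arid1a* cKO libraries. ARID1A is a subunit of the BAF form of the SWI/SNF chromatin remodeling complex, and the comparison asks how transcript abundance in these cells differs when the gene is deleted in the germline. *Arid1a* cKO males carried floxed *Arid1a* alleles (*Arid1a* fl/fl) and 1 copy of the *Stra8-Cre* transgene (Tg/0), which is expressed from the spermatogonial stage. *Arid1a* WT males carried the floxed allele in the homozygous or heterozygous state (fl/fl or fl/+) without Cre, so that floxed *Arid1a* was present in both groups. All were adults older than 60 days on a CD1 background, and the cells of at least 12 males were pooled for a purification by Sta-Put sedimentation, in which cells separate by size and fractions are then judged by light microscopy. Because excision by *Stra8-Cre* is incomplete, the *Arid1a* cKO fractions also held spermatocytes that escaped deletion.

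CHD proteins couple the energy of ATP hydrolysis to the movement, assembly or eviction of nucleosomes, and each carries paired chromodomains next to a SNF2-type ATPase. CHD1 and CHD2 act with transcribing RNA polymerase II. CHD3, CHD4 and CHD5 are alternative ATPases of NuRD, a complex that joins nucleosome remodeling to histone deacetylation. CHD6, CHD7, CHD8 and CHD9 form the remaining subfamily and are known mainly for roles at enhancers and promoters of developmental genes. CHD5 is known for its restriction to neurons and the testis, where the protein is found in spermatids and takes part in the exchange of histones for protamines.

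Each library held between 15850961 and 22044507 estimated counts assigned to genes. The targeted gene *Arid1a* had 113 ± 13.8 CPM (its counts relative to the library size after scaling by the trimmed mean of M-values, TMM; SD, n = 4) in *Arid1a* WT and 79.7 ± 2.89 CPM in *Arid1a* cKO. The log2 fold change of *Arid1a* was -0.51 (SE 0.07, adjusted p = 2.31e-05 by the quasi-likelihood test of edgeR, adjusted over all genes after Benjamini and Hochberg), and the libraries of the 2 groups did not overlap. Estimates cover the whole gene, so transcripts that lack the floxed exons are counted with the rest. In bulk RNA, fewer cells of a type and less RNA per cell cannot be told apart, and this holds for each value below. Of 10 markers of pachytene and diplotene spermatocytes, 2 had risen and 7 had fallen in *Arid1a* cKO, and their summed abundance ranged from 8704 to 10246 CPM in *Arid1a* WT and from 6538 to 7028 CPM in *Arid1a* cKO. That sum includes the large fall of *Piwil1*, from a mean of 1597 CPM in *Arid1a* WT to 109 CPM in *Arid1a* cKO. The median log2 fold change of these markers was -0.23. All 17 spermatid markers were higher, with sums of 2317 to 2558 CPM against 10213 to 10453 CPM. Of 11 Sertoli cell markers 10 were lower, with sums of 553 to 624 CPM against 168 to 173 CPM. The part of these differences in cell-type markers in the results for the CHD genes was not tested.

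In estimated counts, every CHD gene differed between the genotypes. *Chd5*, *Chd6* and *Chd7* were higher in *Arid1a* cKO, and *Chd1*, *Chd2*, *Chd3*, *Chd4*, *Chd8* and *Chd9* were lower. A gene was called at an adjusted p of 0.05 or less, and 74% of all tested genes were called, with 36.5% called higher and 37.5% called lower. In terms of the number called, 9 of 9 members therefore stood against a background in which most genes were called as well. CPM values of the 2 groups did not overlap for 9 of 9 members, compared with 68.9% of all tested genes. The median log2 fold change of the members was -0.55, beside -0.02 over all tested genes, and their median absolute log2 fold change was 0.72 beside 0.76. Among all called genes 49.3% were higher, a share that fell to 38.9% when TPM values were rescaled to the listed genes and tested with limma. Without overlap in CPM, the exact permutation test (two-sided) had to give p = 0.0286 for each member. That is the smallest value that 4 against 4 libraries allow, and it only restates the lack of overlap seen in 68.9% of tested genes.

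**Figure D1:**
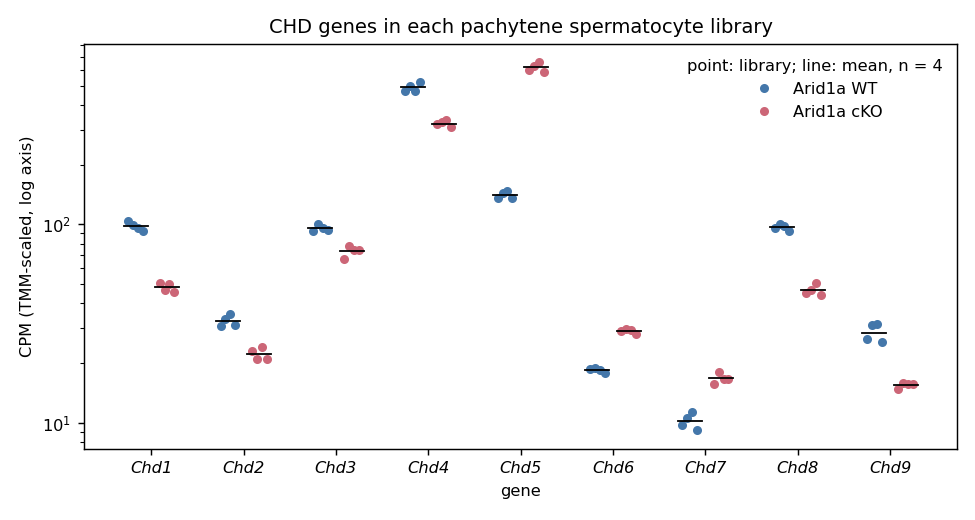
CPM (log axis) of each CHD gene in the 4 *Arid1a* WT and 4 *Arid1a* cKO libraries, with one point per library and a line at the mean. *Chd5* lies between 135 and 147 CPM in *Arid1a* WT and between 586 and 656 CPM in *Arid1a* cKO, while *Chd1* and *Chd8* lie near 100 CPM in *Arid1a* WT and near 50 CPM in *Arid1a* cKO.

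The sequences upstream of *Chd5*, *Chd4* and *Chd6* are shown because *Chd5* and *Chd4* had the largest rise of the family and the highest level in *Arid1a* WT, and *Chd6* was the other gene higher in *Arid1a* cKO that had an entry in the RefSeq promoter table. Of the 9 members, 5 had an entry. Each run is the 250 bases before a RefSeq transcription start in GRCm38.p6, written 5′ to 3′ on the strand of the gene, with motif matches in capitals. The motifs searched on both strands were the cAMP response element TGACGTCA, its half-site TGACG (which the full element contains), the GC box GGGCGG, the CCAAT box CCAAT, the TATA box TATAAA, the NRF1 element (GCGCA directly followed by TGCGC) and the X-box, the motif of RFX factors, in the form GTTGCC followed after 3 bases by GCAAC. The half-site and the X-box were added after the *Chd5* sequence had been seen. The run of *Chd5* lies at chr4:152338401-152338650 (plus strand), that of *Chd4* at chr6:125095731-125095980 (plus strand) and that of *Chd6* at chr2:161109087-161109336 (minus strand).
Chd5: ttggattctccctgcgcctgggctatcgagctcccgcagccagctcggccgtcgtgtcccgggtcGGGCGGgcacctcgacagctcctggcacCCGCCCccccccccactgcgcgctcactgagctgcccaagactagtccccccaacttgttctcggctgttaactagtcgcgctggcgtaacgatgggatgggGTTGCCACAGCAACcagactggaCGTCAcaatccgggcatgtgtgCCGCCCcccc
Chd4: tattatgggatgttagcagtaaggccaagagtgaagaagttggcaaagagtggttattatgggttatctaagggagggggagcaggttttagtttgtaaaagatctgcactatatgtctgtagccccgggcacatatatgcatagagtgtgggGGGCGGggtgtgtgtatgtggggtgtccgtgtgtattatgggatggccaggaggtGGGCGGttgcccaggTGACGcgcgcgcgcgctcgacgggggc
Chd6: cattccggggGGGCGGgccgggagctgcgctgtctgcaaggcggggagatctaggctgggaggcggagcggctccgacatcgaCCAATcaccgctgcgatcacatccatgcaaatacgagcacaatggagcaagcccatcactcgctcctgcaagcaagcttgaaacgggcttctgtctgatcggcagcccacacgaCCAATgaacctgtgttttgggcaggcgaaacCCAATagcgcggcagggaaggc

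The *Chd5* sequence held 1 X-box, 3 GC boxes and 1 half-site. The X-box in this form was present in 0.118% of the 27025 promoter sequences of the same length (1 per gene), the GC box in 32.9% and the half-site in 17.9%. The *Chd4* sequence held 2 GC boxes and 1 half-site. A second RefSeq entry of *Chd4*, at chr6:125095913-125096162 and overlapping the first, held 3 GC boxes, 1 half-site and 1 CCAAT box and was 67.6% G and C. The *Chd6* sequence held 3 CCAAT boxes, which occur in 34.5% of promoters, and 1 GC box. None of these 3 sequences held the full cAMP response element, the NRF1 element or the TATA box, which were present in 1.62%, 0.781% and 13% of promoters. The 3 sequences were 67.2%, 54% and 61.6% G and C for *Chd5*, *Chd4* and *Chd6*, against a median of 52% over all promoters. A match is a description of the letters and not of a bound site.

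Among the NuRD ATPases, *Chd5* rose and *Chd3* and *Chd4* fell. *Chd5* (chromosome 4, 152338646 to 152390194, GRCm38.p6) had 136, 144, 147 and 135 CPM in *Arid1a* WT replicates 1 to 4. In *Arid1a* cKO replicates 1 to 4 it had 602, 630, 656 and 586 CPM. Every *Arid1a* cKO library thus lay far above every *Arid1a* WT library. The group means were 141 ± 5.98 and 618 ± 31.1 CPM (SD, n = 4), a 4.39-fold increase. The log2 fold change was 2.14 (SE 0.05, 95% confidence interval 2.02 to 2.25, edgeR, adjusted p = 1.19e-13). It was the largest change in the family, and 1278 genes, or 7.24% of those tested, had a log2 fold change at least as high. *Chd5* also rose when the fit used offsets for transcript length (log2 fold change 2.04, SE 0.08, edgeR, adjusted p = 2.12e-10).

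The rise of *Chd5* lay within the range of the spermatid markers. Of the 17 spermatid markers, 16 had log2 fold changes between 1.79 and 2.38, and the other, the acrosomal protease gene *Acr*, had 0.29. *Chd5* was exceeded by 11 of these markers and exceeded 6 of them. The part of spermatid RNA in the rise of *Chd5* was not tested. By the profile over the 8 libraries, the genes most like *Chd5* among 9706 well-detected genes were *Pde4a*, a cAMP phosphodiesterase (Pearson r of log2 CPM 0.99985), *Stox2* (0.99978) and *Vwa5b1* (0.99977). With only 2 groups this likeness mostly restates the difference between the genotypes, and 1617 genes had an r of 0.99 or more.

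*Chd4* (chromosome 6, 125095980 to 125130591), the main NuRD ATPase in most tissues, had 472, 500, 469 and 522 CPM in the *Arid1a* WT libraries. The *Arid1a* cKO libraries had 319, 327, 334 and 310 CPM. The groups were well separated, with means of 491 ± 25 and 323 ± 10.4 CPM. The log2 fold change was -0.61 (SE 0.05, edgeR, adjusted p = 5.93e-08), which left 65.7% of the abundance in *Arid1a* WT. *Chd3* (chromosome 11, 69343273 to 69369499), which encodes an alternative NuRD ATPase, had 92.3, 100.6, 96.0 and 94.2 CPM in *Arid1a* WT. In *Arid1a* cKO it had 67.2, 78.1, 73.9 and 74.3 CPM. *Chd3* showed the smallest change of the family on counts, with a log2 fold change of -0.38 (SE 0.05, edgeR, adjusted p = 1.49e-05), and the 2 groups still did not overlap.

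**Figure D2:**
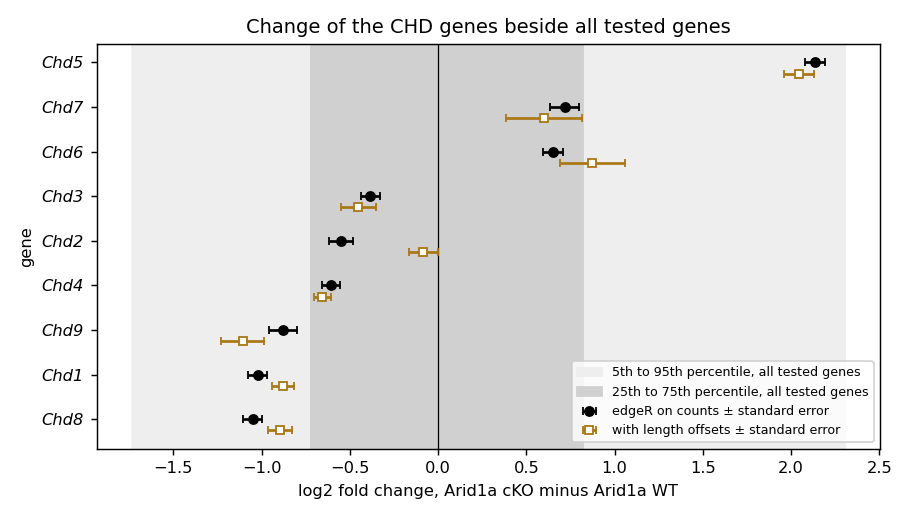
Log2 fold change of each CHD gene (*Arid1a* cKO minus *Arid1a* WT) with its standard error, from counts (filled circles) and with offsets for transcript length (open squares), over grey bands that hold the middle 50% and 90% of all tested genes. *Chd5* lies above the upper quartile of 0.82 and under the 95th percentile of 2.30, and *Chd2* moves from -0.55 to -0.08 with the offsets.

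Because these 3 ATPases are alternatives, their abundances were compared per transcript with TPM (an abundance scaled for transcript length and library size). *Chd4* was the most abundant of the 3 in *Arid1a* WT at 125 ± 7.02 TPM and had 74.0 ± 2.50 TPM in *Arid1a* cKO. *Chd5* had 32.3 ± 5.33 TPM in *Arid1a* WT and was the most abundant in *Arid1a* cKO at 124 ± 7.94 TPM. *Chd3* had 41.6 ± 5.83 and 28.4 ± 3.91 TPM. Of the summed TPM of the 3 genes, *Chd4* accounted for 62.9 ± 2.59% in *Arid1a* WT and 32.8 ± 1.45% in *Arid1a* cKO (SD, n = 4). *Chd5* accounted for 16.2 ± 1.81% and 54.7 ± 0.846%, and *Chd3* for 20.9 ± 1.81% and 12.5 ± 1.16%. None of these shares overlapped between the groups. The ratio of *Chd5* to *Chd4* TPM was 0.246, 0.254, 0.311 and 0.223 in the *Arid1a* WT libraries and 1.56, 1.67, 1.68 and 1.78 in the *Arid1a* cKO libraries. The sum itself was 199 ± 15 TPM in *Arid1a* WT and 226 ± 13 TPM in *Arid1a* cKO, with ranges that overlapped (181 to 213 and 207 to 237 TPM). In CPM, which is not scaled for length, the sum was higher in *Arid1a* cKO without overlap (701 to 751 and 970 to 1064 CPM). These shares describe RNA of a mixed fraction and not the composition of NuRD in a cell.

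**Figure D3:**
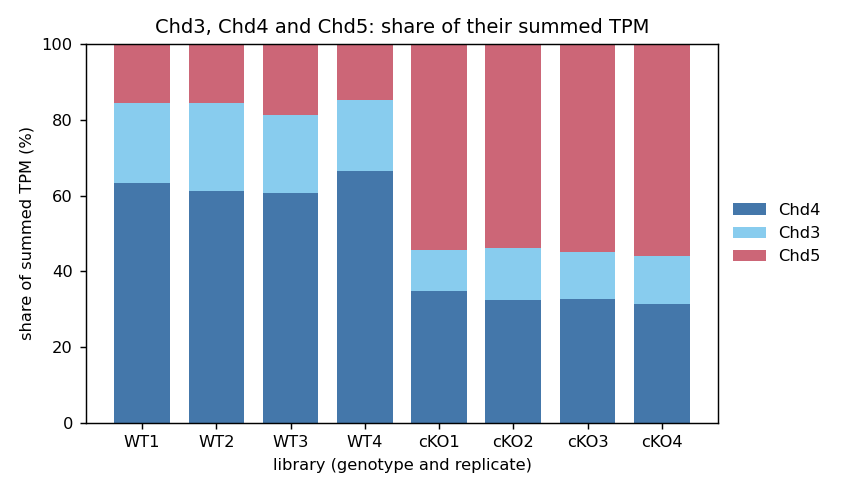
Share of the summed TPM of *Chd3*, *Chd4* and *Chd5* (percent) taken by each gene in each of the 8 libraries. *Chd4* takes 60.7% to 66.4% in the *Arid1a* WT libraries and 31.3% to 34.8% in the *Arid1a* cKO libraries, and *Chd5* takes 14.8% to 18.9% and 53.96% to 55.9%.

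The other subunits of NuRD did not move as a block. Of 12 subunits outside the CHD family, 7 were higher and 5 lower in *Arid1a* cKO, with a median log2 fold change of 0.16. The background for this count and for those of the gene lists below was 36.5% of all tested genes called higher and 37.5% called lower. The scaffold subunit genes *Gatad2a* and *Gatad2b* rose by 1.16 (SE 0.05, edgeR, adjusted p = 3.64e-11) and 1.14 (SE 0.05, adjusted p = 1.10e-10) on the log2 scale. *Mbd3*, which encodes a methyl-CpG-binding domain protein of the complex, had a log2 fold change of -0.99 (SE 0.06, edgeR, adjusted p = 1.66e-09). *Rbbp4*, the gene of a histone chaperone shared with other complexes, had -0.91 (SE 0.06, edgeR, adjusted p = 2.05e-09). With rescaled TPM and limma, 4 NuRD subunits were called higher and 6 lower, and the deacetylase gene *Hdac2* turned from 0.14 to -0.17.

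CHD4 also joins the ADNP and HP1 proteins in the ChAHP complex, which represses transcription. Of 4 genes for these partners, 3 were higher and 1 was lower. *Adnp2*, a paralog of *Adnp*, rose by 0.78 (SE 0.05, edgeR, adjusted p = 5.88e-09) and the HP1 gamma gene *Cbx3* by 0.55 (SE 0.05, edgeR, adjusted p = 1.27e-07) on the log2 scale. The HP1 beta gene *Cbx1* had a log2 fold change of -1.53 (SE 0.08, edgeR, adjusted p = 1.52e-10), a larger fall than that of any CHD gene.

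*Chd1* and *Chd2*, the members tied to transcribed genes, were both lower in counts. *Chd1* (chromosome 17, 15704967 to 15772612) binds methylated H3K4 through its chromodomains, and had 104, 98.9, 95.8 and 92.8 CPM in *Arid1a* WT. The *Arid1a* cKO libraries had 50.5, 46.5, 49.8 and 45.5 CPM. The groups were far apart, and *Arid1a* cKO retained 49.2% of the abundance. The log2 fold change was -1.02 (SE 0.05, edgeR, adjusted p = 2.98e-10), and with length offsets it was -0.88 (SE 0.06, edgeR, adjusted p = 4.80e-08). *Chd2* (chromosome 7, 73426652 to 73541746) had 30.8, 33.2, 35.5 and 31.2 CPM in *Arid1a* WT. In *Arid1a* cKO it had 23.0, 20.9, 24.2 and 21.0 CPM. These groups did not overlap, and the log2 fold change was -0.55 (SE 0.07, edgeR, adjusted p = 4.46e-06).

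The fall of *Chd2* depended on the unit in which it was measured. In TPM the gene had 13, 13.3, 15.6 and 12 in *Arid1a* WT and 10.9, 11.6, 12.8 and 12 in *Arid1a* cKO, and the groups overlapped. With offsets for transcript length, the log2 fold change was -0.08 (SE 0.08, 95% confidence interval -0.26 to 0.09, edgeR, adjusted p = 0.372). In that fit 69.9% of all tested genes were called, and *Chd2* was the only member that was not. Across the family, TPM of the groups did not overlap for 6 of 9 members, compared with 64.8% of all tested genes, and the members that overlapped were *Chd2*, *Chd6* and *Chd7*. *Chd1* and *Chd2* together had 51.8 ± 1.19 TPM in *Arid1a* WT and 31.3 ± 1.59 TPM in *Arid1a* cKO. The share of *Chd1* in that sum was 74.0 ± 2.64% and 62.2 ± 1.74%, without overlap.

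Dividing the estimated counts of a gene by its TPM gives its average transcript length, weighted by the abundance assigned to each annotated transcript, and this showed where the 2 units part for *Chd2*. The average length of *Chd2* transcripts was 3521, 3947, 3637 and 3873 bases in *Arid1a* WT. It was 2903, 2518, 2651 and 2444 bases in *Arid1a* cKO. Every *Arid1a* cKO library lay below every *Arid1a* WT library. The difference was -0.44 on the log2 scale (SE 0.06, limma with Benjamini-Hochberg adjustment over 10830 genes, adjusted p = 0.000844). In GENCODE M21 the longest annotated *Chd2* transcript has 9085 bases, and 15 of the 18 transcripts of the gene have fewer than 2000 bases. Whether Salmon used this set of transcripts is not given in the sources used here. Of the 31-base words of *Chd2*, 18.0% also occur in another gene, mostly in the noncoding gene *1810026B05Rik*, which overlaps it on the same strand over 2628 exonic bases and was not analysed here. Reads from the shared bases cannot be told apart between the 2 genes, and the part of this overlap in the difference was not tested.

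Only *Chd2*, *Chd4* and *Chd9* were called for a difference in average transcript length, 3 of 9 members beside 56.1% of the genes tested for length. With each library centred on its median gene, 44.1% of all these genes were called longer and 11.9% shorter in *Arid1a* cKO. In that fit *Chd2* belonged to the less frequent direction. *Chd4* (difference 0.08, SE 0.01, limma, adjusted p = 0.00239) and *Chd9* (difference 0.26, SE 0.07, limma, adjusted p = 0.0178) were longer on the log2 scale. When the libraries were centred on genes with a single annotated transcript, 20.2% of genes were called, and these were not counted by direction. *Chd2* was then still called, whereas *Chd4* had 0.02 (limma, adjusted p = 0.530) and *Chd9* had 0.19 (limma, adjusted p = 0.122). Lengths of the groups did not overlap for 1 of 9 members, *Chd2*, compared with 25% of genes.

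The members differed widely in how much of their longest transcript in GENCODE M21, a set that Salmon may not have used, the average covered. *Chd4* averaged 6042 ± 104 bases in *Arid1a* WT, which is 90.2% of its longest transcript. *Chd6*, *Chd5* and *Chd7* stood at 76.5%, 71.4% and 67.6%, and *Chd1*, *Chd3* and *Chd2* at 49.6%, 49.1% and 41.2%. *Chd8* averaged 28.7%, with 10 of its 16 annotated transcripts classed as retained introns. *Chd9* averaged only 1258 ± 63.2 bases, 10.5% of its longest transcript of 12008 bases. For the same counts a shorter average length gives a higher TPM, so the TPM levels of *Chd8* and *Chd9* depend on how abundance was assigned between short and full-length annotated transcripts.

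**Figure D4:**
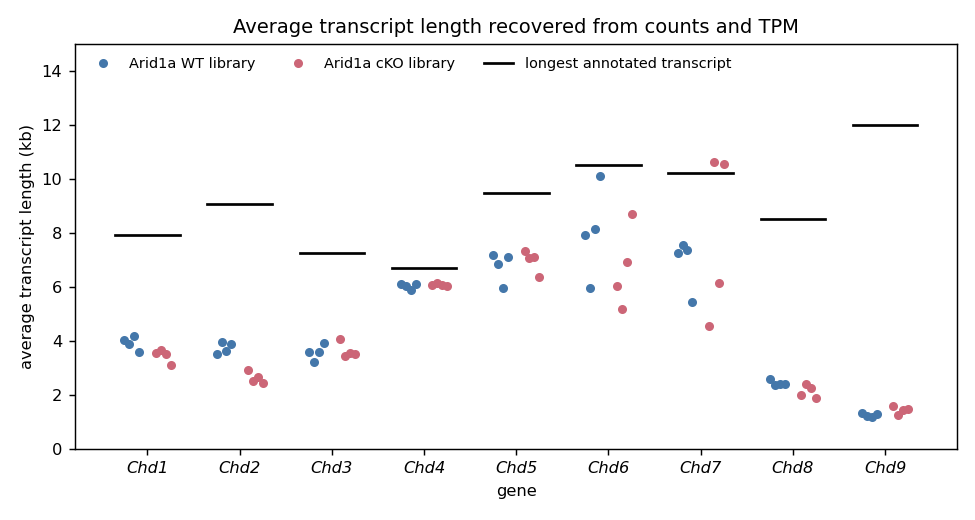
Average transcript length (kb) of each CHD gene in each library, from estimated counts divided by TPM, with a black line at the longest annotated transcript. *Chd2* is shorter in all 4 *Arid1a* cKO libraries, *Chd4* lies close to its longest transcript, and *Chd9* lies near 1258 bases under a line at 12008 bases.

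Elongation factors linked to CHD1 were mostly lower. Of 10 genes for the PAF1 complex, FACT and related elongation factors, 2 were higher and 8 lower, beside 36.5% and 37.5% of all tested genes. The median log2 fold change was -0.49. *Paf1* rose by 0.71 (SE 0.05, edgeR, adjusted p = 3.66e-09) and *Rtf1* by 0.59 (SE 0.05, edgeR, adjusted p = 2.08e-08) on the log2 scale. *Supt16*, which encodes a subunit of the histone chaperone FACT, had a log2 fold change of -1.07 (SE 0.06, edgeR, adjusted p = 2.87e-10). *Wdr61*, a PAF1 complex subunit gene, had -0.78 (SE 0.08, edgeR, adjusted p = 3.82e-07).

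In the CHD6 to CHD9 subfamily, *Chd8* and *Chd9* fell and *Chd6* and *Chd7* rose. *Chd8* (chromosome 14, 52198151 to 52258042), known for its link to autism when mutated in humans, had 95.8, 100.65, 98.1 and 93.1 CPM in *Arid1a* WT. The *Arid1a* cKO libraries had 44.9, 46.9, 50.9 and 44.1 CPM. The groups were well apart, and the log2 fold change of -1.05 (SE 0.05, edgeR, adjusted p = 2.50e-10) was the lowest of the family on counts. With length offsets *Chd8* had -0.89 (SE 0.07, edgeR, adjusted p = 9.81e-08) and *Chd9* was lower still at -1.11 (SE 0.12, edgeR, adjusted p = 3.04e-06). Over 953 exonic bases *Chd8* overlaps a gene on the opposite strand, and whether reads were assigned by strand is not given in the sources used here. *Chd9* (chromosome 8, 90828302 to 91054516) had 26.3, 30.9, 31.4 and 25.4 CPM in *Arid1a* WT. In *Arid1a* cKO it had 14.9, 15.8, 15.6 and 15.6 CPM. The *Arid1a* WT libraries varied more than the *Arid1a* cKO libraries but all lay above them, and the log2 fold change was -0.88 (SE 0.08, edgeR, adjusted p = 1.21e-07).

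*Chd6* (chromosome 2, 160946978 to 161109086) had 18.6, 18.9, 18.4 and 17.8 CPM in *Arid1a* WT. The *Arid1a* cKO libraries had 29.0, 29.5, 29.2 and 28.1 CPM. Both groups were tight, and the log2 fold change was 0.65 (SE 0.05, edgeR, adjusted p = 5.72e-08). With length offsets *Chd6* had 0.87 (SE 0.18, edgeR, adjusted p = 0.000938), while its TPM overlapped between 4.52 and 4.99. *Chd7* (chromosome 4, 8690402 to 8868449), the gene mutated in CHARGE syndrome, was the least abundant member, at 9.75, 10.6, 11.3 and 9.14 CPM in *Arid1a* WT. In *Arid1a* cKO it had 15.7, 18.0, 16.6 and 16.6 CPM. The groups did not overlap and the log2 fold change was 0.72 (SE 0.08, edgeR, adjusted p = 1.59e-06). In TPM, *Chd7* ranged from 1.99 to 2.52 in *Arid1a* WT and from 2.21 to 4.75 in *Arid1a* cKO, and with limma on log2(TPM + 1) its difference of 0.34 did not pass (adjusted p = 0.118). *Chd7* rested on 197 to 347 estimated counts per library, the fewest of the family in *Arid1a* WT, whereas *Chd9*, at 243 to 327, had the fewest in *Arid1a* cKO. The recovered average length of *Chd7* in *Arid1a* cKO varied between 4539 and 10611 bases. In replicates 2 (10611) and 4 (10540) it exceeded the longest annotated transcript of 10216 bases, so these lengths are rough.

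The subfamily as a whole was lower in *Arid1a* cKO, with a summed abundance of 102 ± 13 TPM in *Arid1a* WT and 55.4 ± 1.06 TPM in *Arid1a* cKO. In CPM the fall was smaller, from 154 ± 7.37 to 108 ± 4.06 CPM, also without overlap. *Chd8* and *Chd9* supplied most of the sum in TPM, and their TPM depends on the assignment to short transcripts. *Chd8* and *Chd9* supplied 59.98 ± 2.22% and 34.2 ± 2.31% of that sum in *Arid1a* WT, and 55.4 ± 4.46% and 27.4 ± 3.36% in *Arid1a* cKO. *Chd6* went from 3.58 ± 0.695% to 11.3 ± 2.53% and *Chd7* from 2.26 ± 0.327% to 5.93 ± 2.16%, in each case without overlap. The shares of *Chd8* in TPM overlapped between the groups, but in CPM they were 62.9 ± 1.09% and 43.3 ± 1.38%, without overlap.

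Of 5 reported partners of CHD8, 1 was higher, 3 were lower and 1 did not pass the test. The insulator factor gene *Ctcf* had a log2 fold change of 0.16 (SE 0.06, edgeR, adjusted p = 0.0311), and this call was lost without *Arid1a* cKO replicate 1, 2 or 3, when the number called higher was 0. Its direction turned when transcript length was taken into account, to -0.20 with length offsets (edgeR, adjusted p = 0.0260) and to -0.28 with limma on log2(TPM + 1) (adjusted p = 0.0101). All 5 partners were called lower in the limma fits on TPM. *Rbbp5*, which encodes a core subunit of H3K4 methyltransferase complexes, had -0.96 (SE 0.08, edgeR, adjusted p = 6.76e-08). The beta-catenin gene *Ctnnb1* had -0.35 (SE 0.06, edgeR, adjusted p = 6.36e-05).

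Across the 9 members the order of TPM levels changed between the genotypes. In *Arid1a* WT *Chd4* led, followed by *Chd8* at 61.1 ± 5.72 TPM, and then *Chd3*, *Chd1*, *Chd9* and *Chd5*, whose neighbouring ranges overlapped between 28.2 and 49.3 TPM. *Chd2* followed at 13.5 ± 1.52, *Chd6* at 3.68 ± 0.973 and *Chd7* at 2.29 ± 0.240 TPM. In *Arid1a* cKO *Chd5* led at 124 TPM, ahead of *Chd4*, and *Chd8* (30.7 ± 2.25 TPM) and *Chd3* followed with overlapping ranges. *Chd1* came next at 19.4 ± 1.10 TPM, then *Chd9* at 15.2 ± 1.92, *Chd2* at 11.8 ± 0.821, and *Chd6* (6.25 ± 1.43 TPM) and *Chd7* (3.29 ± 1.21 TPM), whose ranges overlapped. Of the TPM of all 9 members, *Chd5* supplied 9.13 ± 0.948% in *Arid1a* WT and 39.6 ± 0.904% in *Arid1a* cKO. Total CHD abundance was 353 ± 28.9 TPM in *Arid1a* WT and 313 ± 14.2 TPM in *Arid1a* cKO, and the ranges overlapped. The listed genes held 78.1% to 81.1% of all TPM in *Arid1a* WT and 88.1% to 88.6% in *Arid1a* cKO. These totals were not rescaled for that difference, so the overlap of their ranges depends on this scaling. In CPM the total was higher in *Arid1a* cKO, at 1012 ± 22.8 against 1193 ± 48.7 CPM, without overlap. When CPM was instead divided by the longest annotated transcript, *Chd9* stood in the seventh place in *Arid1a* WT at 2.37 ± 0.259 CPM per kb, and *Chd5* in the second at 14.8 ± 0.631 CPM per kb. By that measure *Chd5* again led in *Arid1a* cKO at 65.2 ± 3.28 CPM per kb, ahead of *Chd4* at 48.2 ± 1.55.

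Outside the family, related SNF2-type ATPases mostly fell. Of 23 such genes, 3 were higher, 17 were lower and 3 did not pass, with a median log2 fold change of -0.68 beside -0.02 for all tested genes. Among all tested genes 36.5% were called higher and 37.5% lower. *Ercc6l*, an X-linked helicase gene of mitotic chromosomes, rose by 1.32 (SE 0.10, edgeR, adjusted p = 1.18e-08) and *Smarcad1* by 0.96 (SE 0.11, edgeR, adjusted p = 1.57e-06) on the log2 scale, although *Smarcad1* was not called with limma on log2(TPM + 1) (0.47, adjusted p = 0.111). *Ino80* had a log2 fold change of -1.36 (SE 0.07, edgeR, adjusted p = 1.07e-10), and the SWI/SNF ATPase gene *Smarca4* had -1.33 (SE 0.05, edgeR, adjusted p = 1.20e-11). *Chd1l*, which shares the name but lacks chromodomains, had 120 ± 13.7 and 82.6 ± 0.856 CPM and a log2 fold change of -0.54 (SE 0.07, edgeR, adjusted p = 6.45e-06). No gene of this list reached the log2 fold change of *Chd5*.

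**Figure D5:**
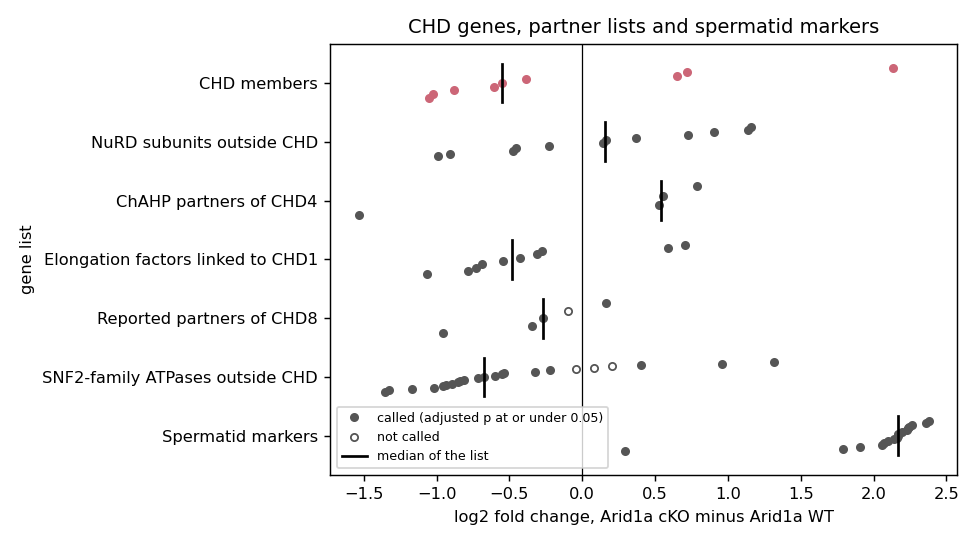
Log2 fold change (*Arid1a* cKO minus *Arid1a* WT) of the CHD genes, of the partner lists, of the other SNF2-type ATPases and of the spermatid markers, with one point per gene, open where the gene was not called, and a line at the median of each list. *Chd5* at 2.14 is the only CHD gene within the range of the spermatid markers other than *Acr*. With *Acr* at 0.29 included, *Chd6* (0.65) and *Chd7* (0.72) also lie within the range. The median of the other ATPases is -0.68.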

How the data were processed

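The samples were grouped by the genotype in their labels, and replicate numbers came from the sample titles. The sources do not state whether each replicate was a separate purification, so p-values measure the spread between these libraries. That spread was uneven. In chi-square per degree of freedom of rounded counts, *Arid1a* cKO pairs differed by 1.74 to 3.59. In *Arid1a* WT, replicates 1 and 4 (4.58) and replicates 2 and 3 (4.60) were closest, and the other pairs differed by 5.78 to 19.1. Poly(A) libraries were sequenced in paired-end reads of 50 bp. The authors quantified reads with Salmon on mm10, summed transcripts to Entrez genes and deposited estimated counts, which are not scaled for depth or length. The authors also deposited TPM, scaled for transcript length and to the whole library, and the TPM of the listed genes made up 78.1% to 81.1% of that total in *Arid1a* WT and 88.1% to 88.6% in *Arid1a* cKO. The authors' table of differential expression holds their log2 fold changes and p-values and was not used. No column was left out.

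The design provided for raw or estimated counts, and the latter were rounded for the test. A gene entered the fit when its counts over all 8 libraries came to 10 or more. Differences were tested in R 4.3.3 by edgeR 4.0.16, with TMM scaling, glmQLFit, glmQLFTest and genotype as sole factor, and a call needed an adjusted p (Benjamini-Hochberg) of 0.05 or less. Average transcript length was the estimated count divided by TPM, centred per library on the median gene, for genes with at least 50 counts and a TPM of 0.5 in every library, and was tested with limma 3.58.1. It was set in bases on 774 genes with a single transcript. Transcripts, overlaps and shared words of 31 bases came from GENCODE M21, and gene coordinates and promoters from RefSeq GRCm38.p6. The authors took transcript annotations from UCSC mm10 known genes, so the transcript set used by Salmon may differ from GENCODE M21. The scripts were tested on simulated data.

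All members and *Arid1a* were named, with *Chd1l*, up to 2 called genes with the largest rise and 2 with the largest fall in each partner list, and the 3 genes most like the member with the largest change. *Acr*, *Hdac2*, *1810026B05Rik*, *Id4*, *Piwil1*, *Hba-a1* and the Leydig and peritubular cell markers were named after their values or annotation were seen. The members and lists were chosen with earlier results of these data known. The alternatives were DESeq2 1.42.0, 3 other scalings, 3 other filters on low counts, length offsets, limma on TPM with pseudocounts of 1 and 0.1, a threshold of 0.01, a replicate block and leaving out each library.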

Additional observations from a re-analysis of the deposited data

Results flagged for a closer look

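Among 54 groups of 4 libraries examined, 3 held a library that stood apart from the other libraries of its group, which is near the 2.7 that chance gives at about 1 in 20 groups. All 3 concern average transcript length. For *Chd7*, *Arid1a* WT replicate 4 was the lowest at 5432 bases, against 7271 to 7544 bases in the other libraries, and the gap took up 0.871 of the whole range. For *Chd8*, *Arid1a* WT replicate 1 was the highest at 2591 bases, against 2380 to 2412 bases (0.846 of the range). For *Chd3*, *Arid1a* cKO replicate 1 was the highest at 4053 bases, against 3442 to 3532 bases (0.853 of the range). The length of none of these 3 genes was called different between the genotypes.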

How the results depend on the processing

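No member reversed under any alternative run. *Ctcf* (0.16 on counts) reversed with length offsets (-0.20), with limma on log2(TPM + 1) (-0.28) or log2(TPM + 0.1) (-0.29) and with rescaled TPM (-0.43). *Hdac2* (0.14 on counts) reversed in the same 3 limma fits (-0.024, -0.025 and -0.17), of which the last was called. The 9 calls on counts held when each library was left out, under all 4 scalings, under the other filters and with DESeq2. *Chd2* was not called with length offsets (-0.083), with limma on log2(TPM + 1) (-0.17) or on log2(TPM + 0.1) (-0.18). *Chd7* was not called with limma on log2(TPM + 1) (0.34), on log2(TPM + 0.1) (0.44) or on rescaled TPM (0.24), the last an alternative chosen after seeing the data. The cause was not tested. The median gene moved from -0.02 to -0.12 without TMM and to -0.13 with rescaled TPM. With rescaled TPM, 4 NuRD subunits were higher and 6 lower. The number of CHD8 partners called higher was 0 without TMM, with length offsets, at an adjusted p of 0.01 and in the 3 limma fits, which called 5 lower, and ranged from 0 to 1 when a library was left out. Centring on genes with 1 transcript gave length differences of 0.015 for *Chd4* and 0.19 for *Chd9*. With CPM in place of TPM, the shift in share was -6.56 percentage points for *Chd1*, 6.56 for *Chd2*, -5.93 for *Chd3*, -35.6 for *Chd4*, 41.6 for *Chd5*, 14.9 for *Chd6*, 8.92 for *Chd7*, -19.7 for *Chd8* and -4.10 for *Chd9*. The same shifts in TPM were -11.8, 11.8, -8.39, -30.2, 38.5, 7.69, 3.67, -4.57 and -6.78, in the order of *Chd1* to *Chd9*.

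Replicate numbers were not found to pair the libraries. Deviations of same-numbered libraries correlated at 0.16, 0.01, 0.09 and -0.14 over 12997 genes, and 1 of 4 *Arid1a* WT and 2 of 4 *Arid1a* cKO libraries correlated best with their own number. With the replicate block no call on a member's abundance changed, but the length differences of *Chd1* (-0.11, adjusted p = 0.0421, limma) and *Chd6* (-0.19, adjusted p = 0.0200, limma) passed.

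Counts were fewest for *Chd7* in *Arid1a* WT and for *Chd9* in *Arid1a* cKO, and recovered lengths rest on how Salmon divided reads among transcripts.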

Other observations

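Apart from *Chd5*, few genes carried the X-box in the searched form. With 1 promoter per gene, 32 genes held it, and 19 of them were tested. Of these, 9 were higher, 7 were lower and 3 were not called, with a median log2 fold change of 0.32 beside -0.02 over all tested genes and a range from -2.91 to 2.14, *Chd5* being the highest. The motif was chosen after the *Chd5* sequence had been seen, so these counts are a description.

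Markers of the earliest germ cells and of macrophages and blood also differed. Of 10 spermatogonial markers 8 were higher and 1 was lower. Their summed abundance overlapped (192 to 198 CPM in *Arid1a* WT and 183 to 193 CPM in *Arid1a* cKO). That sum includes the large fall of the 1 lower marker, *Id4*, from a mean of 90.3 CPM in *Arid1a* WT to 14.4 CPM in *Arid1a* cKO. Markers of leptotene and zygotene spermatocytes were divided, with 5 higher and 5 lower. Of 9 tested markers of macrophages and blood, 6 were higher and 1 was lower, at summed levels of 5.81 to 6.92 CPM and 13.7 to 15.98 CPM. The lower gene was the hemoglobin gene *Hba-a1*, with means of 0.858 CPM in *Arid1a* WT and 0.191 CPM in *Arid1a* cKO. Of 10 Leydig and peritubular cell markers, 4 were higher and 5 were lower. The Leydig cell genes *Star*, *Cyp11a1*, *Cyp17a1*, *Hsd3b1* and *Insl3* were lower, with log2 fold changes from -3.65 to -2.08. *Acta2*, *Myh11*, *Tagln* and *Pdgfra* were higher, from 0.36 to 0.83. *Lhcgr*, also a Leydig cell gene, was not called (-0.57).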
